A study of Homo sapiens with 16 samples.

Results

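TRIM28 and 4 genes near it, CHMP2A, ZSCAN22, ZNF584 and ZNF497, lie close to the end of the long arm of chromosome 19 and are described here across 8 lists of chromatin regions from PC9 cells. The regions of these 5 genes were found by the gene name that the authors gave to each region, and the genes themselves were chosen by their H3K9me3 regions listed with osimertinib. They hold 20 of 59617 regions over all lists, and they are 5 of 18284 gene names. PC9 is a human cell line of non-small cell lung cancer whose growth is driven by a mutant, active EGFR, and the cells used here were unedited and labelled as wild type. It was given osimertinib, an inhibitor of mutant EGFR, or vehicle (DMSO). Binding was profiled for H3K9me3, H3K4me3, H3K4me1 and KDM1A (LSD1), with 1 library per target and treatment, so no difference between osimertinib and vehicle has a replicate check and none was tested. No label gives the osimertinib dose or time for these libraries. A further 6 RNA and 2 IgG samples were not used here.

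TRIM28, also called KAP1, is a scaffold protein that KRAB zinc finger proteins bring to DNA. It recruits SETDB1, which writes H3K9me3, and HP1 proteins, which bind the mark, and in this way silences retroelements. H3K9me3 also covers many zinc finger gene clusters on chromosome 19, mostly over the 3′ parts of the genes. H3K4me3 marks active gene starts, H3K4me1 marks enhancers and the flanks of starts, and KDM1A removes methyl groups from histone H3. ZNF584 codes for a zinc finger protein with a KRAB domain, ZSCAN22 for one with a SCAN domain, ZNF497 for a C2H2 zinc finger protein, and CHMP2A for a subunit of the membrane-cutting complex ESCRT-III.

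The promoter sequences below, the 250 bases before the annotated start in RefSeq (GRCh38.p14), are shown because the H3K9me3 regions with osimertinib cover 3 of the 4 in full. They are written 5′ to 3′ in the direction of the gene. Capitals mark a ZNF143-type element (ACTACANTT, either strand) in ZSCAN22 and ZNF584 and an NRF1-type element (GCGCANGCG, either strand) in CHMP2A. The elements were chosen after the sequences were seen.
CHMP2A: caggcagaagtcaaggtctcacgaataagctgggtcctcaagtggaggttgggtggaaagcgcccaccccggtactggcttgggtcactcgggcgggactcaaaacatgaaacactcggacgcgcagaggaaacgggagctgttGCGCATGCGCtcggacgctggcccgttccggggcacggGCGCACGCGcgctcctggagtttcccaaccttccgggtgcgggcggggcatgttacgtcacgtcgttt
ZSCAN22: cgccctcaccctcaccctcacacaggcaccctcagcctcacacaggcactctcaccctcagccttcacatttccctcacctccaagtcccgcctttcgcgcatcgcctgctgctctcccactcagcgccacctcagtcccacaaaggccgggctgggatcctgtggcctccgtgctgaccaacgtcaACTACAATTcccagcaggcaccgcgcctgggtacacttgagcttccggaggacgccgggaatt
ZNF584: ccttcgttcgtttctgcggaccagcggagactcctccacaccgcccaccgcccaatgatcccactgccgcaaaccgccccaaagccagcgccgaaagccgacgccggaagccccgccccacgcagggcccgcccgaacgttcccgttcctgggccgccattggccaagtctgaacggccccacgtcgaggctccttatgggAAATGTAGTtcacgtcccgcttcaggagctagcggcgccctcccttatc
ZNF497: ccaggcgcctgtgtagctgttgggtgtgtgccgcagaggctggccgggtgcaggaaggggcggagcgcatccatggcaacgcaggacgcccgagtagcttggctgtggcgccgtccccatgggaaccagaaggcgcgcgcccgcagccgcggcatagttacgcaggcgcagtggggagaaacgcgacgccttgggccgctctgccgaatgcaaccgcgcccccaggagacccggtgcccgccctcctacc

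The CHMP2A window is chr19:58555106-58555355 on the minus strand, ZSCAN22 is chr19:58326744-58326993 on the plus strand, ZNF584 is chr19:58408399-58408648 on the plus strand and ZNF497 is chr19:58362752-58363001 on the minus strand. All 4 are richer in G and C than the median of 58% over 35116 RefSeq promoter windows of the same length. The GC content was 63.6% in CHMP2A, 63.2% in ZSCAN22, 66.4% in ZNF584 and 70.8% in ZNF497. CpG dinucleotides numbered 26 in CHMP2A, 14 in ZSCAN22, 27 in ZNF584 and 27 in ZNF497, and the ratio of observed to expected CpG was 1.04, 0.648, 1.05 and 0.864 in the same order, against a median of 0.558. The ZNF143-type element was found in 2 of the 4 windows, against 1.22% of all windows, and it began 63 bases before the start in ZSCAN22 and 49 in ZNF584. The NRF1-type element occurred in 1 of the 4, CHMP2A, and in 6.56% of all windows. CHMP2A holds it at 106, 105 and 68 bases before the start, where the matches at 106 and 105 are overlapping readings of 1 palindrome on opposite strands. An ETS-type element (CCGGAAG) was found in CHMP2A, ZSCAN22 and ZNF584, 3 of the 4, and in 8.52% of all windows. A GC box (GGGCGG) was in CHMP2A, ZNF584 and ZNF497, 3 of the 4, and in 42.6% of all, and CCAAT was in 1, ZNF584, and in 32.0% of all. Each was searched on both strands, and a match describes letters in the window, not binding.

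With osimertinib the H3K9me3 windows at ZSCAN22, ZNF584 and ZNF497 cover all 250 bases. The CHMP2A window lies 1283 bp from the nearest H3K9me3 region with osimertinib. H3K4me3 covers the whole ZSCAN22 and ZNF584 windows both with osimertinib and with vehicle. It covers 162 bases of the ZNF497 window with osimertinib, and with vehicle its nearest region is 1257 bp away. The CHMP2A window lies 4699 bp from the nearest H3K4me3 region with osimertinib and 4988 bp from the nearest with vehicle.

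A list of 2 kb regions stood for each library. There were 2073 H3K9me3 regions with osimertinib and 2749 with vehicle. H3K4me3 had 13285 with osimertinib and 11621 with vehicle, H3K4me1 had 6515 with osimertinib and 9761 with vehicle, and KDM1A had 8882 with osimertinib and 4731 with vehicle. Read depth is unknown, and the scale of the signal is not stated, so signals are set only against others of their own list, by rank or as a multiple of the list's median. Among defining markers, all 5 epithelial genes and EGFR had an H3K4me3 promoter region with either treatment, 0 of 4 lung lineage genes (NKX2-1, NAPSA, SFTPB, SFTPC) had one, and 0 of 3 fibroblast and 0 of 2 endothelial genes had one. Of 4 leukocyte genes, 0 had one with osimertinib. Of the 100 strongest H3K9me3 regions with osimertinib, 91 overlap an H3K4me3 region listed with vehicle (91%, exact 95% interval 83.6 to 95.8, counting error only), and 73 overlap one listed with osimertinib. Of the 100 strongest with vehicle, 74 overlap an H3K4me3 region listed with osimertinib and 6 overlap one listed with vehicle. Between the H3K9me3 lists, 49 of the 100 strongest with osimertinib overlap a region with vehicle, and 52 of the 100 strongest with vehicle overlap a region with osimertinib. Over the 188 H3K9me3 regions with osimertinib that overlap an H3K4me3 region with vehicle, the 2 signals had a Spearman rho of 0.910 across regions of these libraries. Over the 301 that overlap an H3K4me3 region with osimertinib, rho was 0.556. Every H3K9me3 value with osimertinib below rests on that 1 library, and whether these overlaps come from the cells or the library was not tested.

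With osimertinib, H3K9me3 was listed at all 5 genes, and with vehicle at 0 of the 5. The 6 regions held places 1, 2, 3, 4, 6 and 12 by signal among the 2073 in the list. These are the values the genes were chosen on and are given as a description. Of 738 genes with an H3K9me3 promoter region (within 3 kb of a transcript start, by the authors' annotation) in either list, 39.3% had it with osimertinib only, and nothing is read from the count of 5 against that share.

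The highest H3K9me3 signal of the list lay at the start of ZSCAN22 (chr19:58326173-58328172), 126 in the deposited units and 191 times the list's median. The start of TRIM28 came next (chr19:58543217-58545216), with a signal of 93.5 or 141 times the median. Both regions hold the RefSeq start of their gene, with their centres 178.5 bp and 152.5 bp inside it. ZNF584 had 2 regions. The stronger (chr19:58408218-58410217), at 68.3 and rank 3, lies on the start used by the promoter sequence above. The weaker (chr19:58399964-58401963), at 34.8 and rank 6, holds the first RefSeq start of the gene upstream of it. ZNF497 had a signal of 20.7 at rank 12 (chr19:58361562-58363561), again over the gene's start. The CHMP2A region (chr19:58551823-58553822), at 51.1 and rank 4, differs from these. It was assigned through a transcript start 275 bp away at position 58554097, does not hold the RefSeq start, and is centred 2282.5 bp inside the gene, in its 3′ direction. The deposited width column repeats 2000 for this region 4 times, where a region of the list usually has 1 entry (73.2%). Among regions with 4 entries the smallest gap to a neighbour in the list was 1072 bp, against 12 bp for those with 1. What the repeats stand for is not stated by the labels or headers.

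Places not held by these genes among the first 7 went to PPP2R1A, the scaffold subunit of protein phosphatase 2A, at 40.5 and rank 5, and to the zinc finger gene ZNF552 at 32.7 and rank 7. Just below ZNF497, rank 13 was a region at AC010642.2 in the same interval, at 20.7. The signal fell off quickly along the list, to 9.09 at rank 50 and 5.48 at rank 100.

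With vehicle, the nearest H3K9me3 region to ZSCAN22 was 2871 bp away and weak, at rank 2516 of 2749. For the ZNF584 regions the distance was 21554 bp (rank 3) and 29808 bp (rank 6), and for ZNF497 it was 38260 bp. TRIM28 and CHMP2A lay farther still, 109445 bp and 118051 bp from the closest region, which is at rank 411. Apart from ZSCAN22, then, every H3K9me3 region of these genes lay 21554 bp or more from the mark with vehicle.

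**Figure D1:**
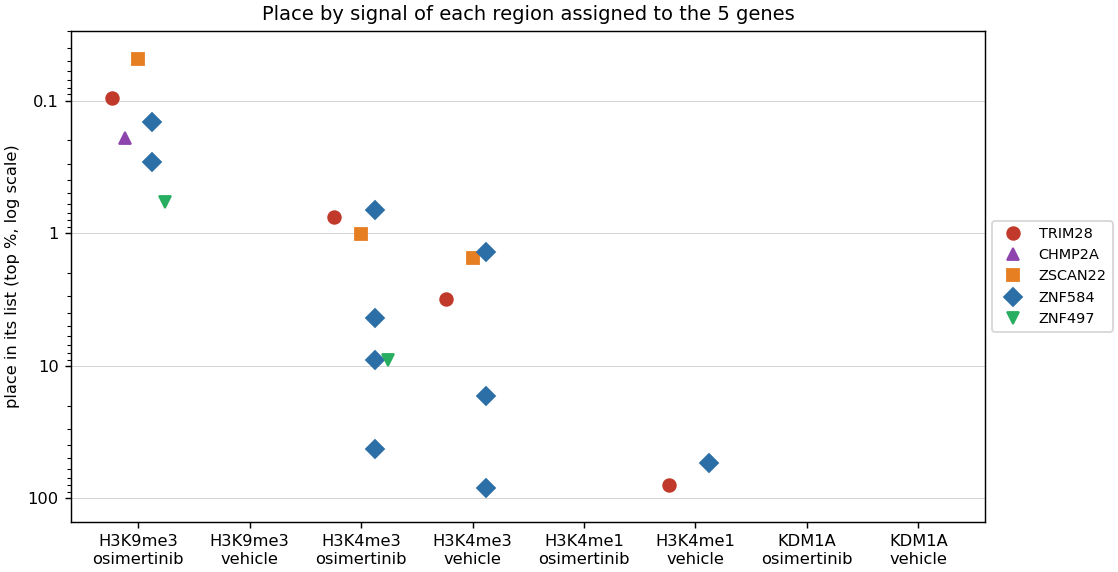
Place of each of the 20 regions assigned to the 5 genes within its own list, as the top percent by signal (vertical log axis, strongest at the top), for each target with osimertinib and with vehicle. All 6 H3K9me3 regions with osimertinib stand above 0.579%, the H3K9me3 vehicle and both KDM1A columns are empty, and the 2 H3K4me1 regions with vehicle lie in the lower part of their list.

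H3K4me3 at the 5 genes was listed with both treatments at TRIM28, ZNF584 and ZSCAN22, 3 of 5 genes, against 55.2% of the 9772 genes with an H3K4me3 promoter region in either list. ZNF497, 1 of 5, had it with osimertinib only, against 17.3% of those genes. CHMP2A had none in either list. It is counted in the 5 but lies outside the base of the 9772 genes, so these counts and shares have unlike bases. No gene of the 5 had it with vehicle only. The shares are from 5 genes picked on H3K9me3 and describe those genes alone.

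ZSCAN22 had an H3K4me3 signal of 33.3 with osimertinib (rank 135 of 13285) and 73.9 with vehicle (rank 179 of 11621). That is 9.47 times the list's median with osimertinib and 10.3 times with vehicle. The 2 regions start 9 bp apart, at 58325188 with osimertinib and 58325179 with vehicle, so the site and its place in the list were nearly the same with both treatments.

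ZNF584 carried more H3K4me3 regions than the other 4 genes, 4 with osimertinib and 3 with vehicle. At its strongest start the signal was 41.3 with osimertinib (rank 89) and 78.4 with vehicle (rank 161), which is 11.8 times the list's median with osimertinib and 11.0 times with vehicle. At the first RefSeq start it was 16.3 with osimertinib (rank 581) and 19.1 with vehicle (rank 1974). The first-start region with osimertinib (chr19:58399841-58401840) lies farther upstream than that with vehicle (chr19:58401037-58403036). Within the gene, a region at 58411431 with osimertinib had a signal of 4.02 (rank 5689), and one at 58411362 with vehicle had 3.71 (rank 9689). A further region near the 3′ end (chr19:58414736-58416735) was listed with osimertinib, at 11.0 and rank 1197, and not with vehicle.

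TRIM28 had 1 H3K4me3 region with each treatment, and neither lay at the RefSeq start. With osimertinib it was chr19:58548407-58550406, at 38.9 and rank 101. With vehicle it was chr19:58548118-58550117, at 51.5 and rank 364. The signal was 11.1 times the list's median with osimertinib and 7.20 times with vehicle. The centres lie 5342.5 bp with osimertinib and 5053.5 bp with vehicle into a gene of 6652 bp, where the authors' annotation has internal transcript starts (58548869 for the region with osimertinib and 58548294 for that with vehicle), so the promoter call at TRIM28 comes from starts inside the gene. Each of these 2 regions is the last of its H3K4me3 list on chromosome 19. ZNF497 had an H3K4me3 region with osimertinib (chr19:58360914-58362913) at 11.0 and rank 1199, on the gene's start.

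H3K4me1 was listed at 2 of the 5 genes, TRIM28 and ZNF584, with vehicle only, and the other 3 had none in either list. Of the 3420 genes with an H3K4me1 promoter region in either list, 62.4% had it with vehicle only. On that base the count is 2 of 2, too few to read. The regions at TRIM28 and ZNF584 were of middling or low strength. ZNF584 (chr19:58399524-58401523) had 3.12 at rank 5314 of 9761, and TRIM28 (chr19:58544055-58546054) had 2.29 at rank 7757. The TRIM28 region holds the gene's start, which H3K4me3 does not with either treatment. KDM1A had 0 regions at the 5 genes in either list. Few KDM1A regions lay anywhere on chromosome 19, 133 of 8882 with osimertinib and 72 of 4731 with vehicle. Over all genes, 1761 had a KDM1A promoter region in either list. Nothing is read from the 0 of 5.

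**Figure D2:**
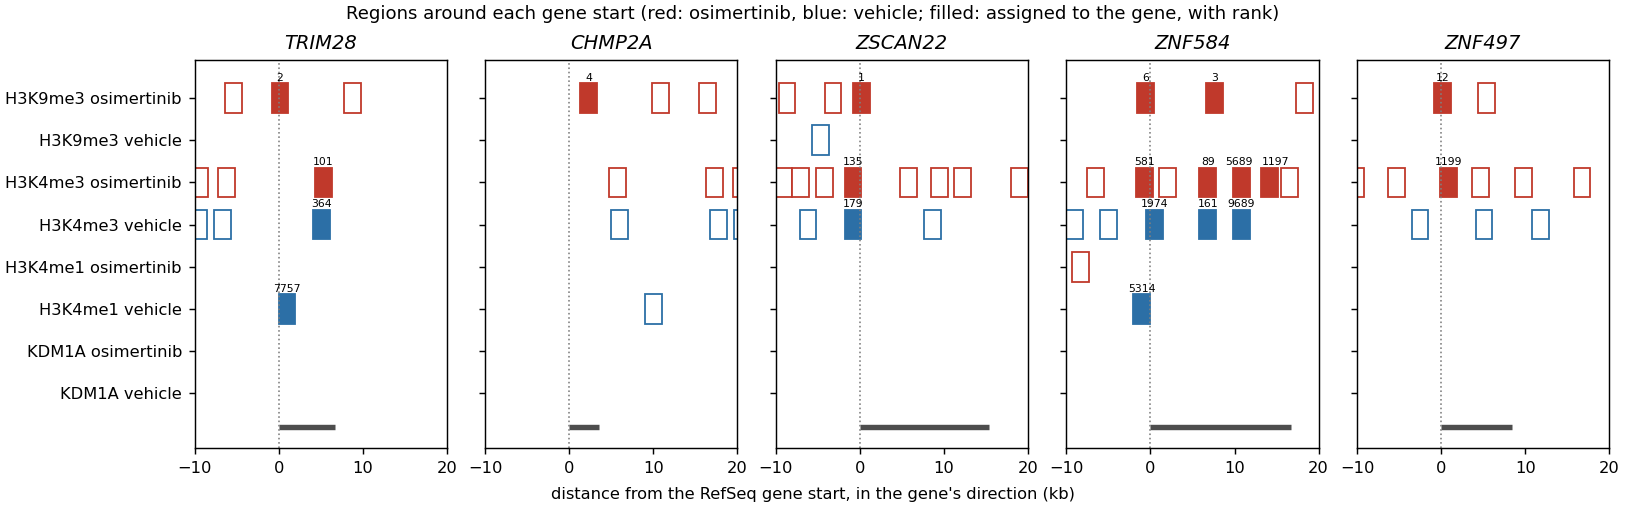
Regions from 10 kb before to 20 kb after the RefSeq start of each gene, in the gene's direction (horizontal axis, kb), by target and treatment (rows). Filled boxes are regions assigned to the gene, with their rank in the list, open boxes are regions assigned to other genes, red is osimertinib, blue is vehicle, and the grey bar is the gene. H3K9me3 with osimertinib sits on the start of TRIM28 at rank 2 and of ZSCAN22 at rank 1, while H3K4me3 of TRIM28 sits near its 3′ end at rank 101 with osimertinib and 364 with vehicle.

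H3K4me3 was next compared at the H3K9me3 sites themselves. With osimertinib, 4 of the 6 H3K9me3 regions overlap an H3K4me3 region of the same treatment, those of ZSCAN22, ZNF497 and both of ZNF584, against 14.5% of all 2073 H3K9me3 regions. With H3K4me3 from vehicle, 3 of the 6 overlap, against 9.07%. In both comparisons TRIM28 and CHMP2A were apart from H3K4me3, and ZNF497 was the gene that differed between them. With regions widened to 2 kb times their repeats, an alternative added after seeing the data, CHMP2A overlaps H3K4me3 of either treatment and ZNF497 also overlaps that of vehicle, so the count is 5 of 6 with each, and TRIM28 still overlaps neither.

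The overlaps were of different lengths. The ZNF584 first start had 1877 bp shared with H3K4me3 of osimertinib and 927 bp with that of vehicle. At its stronger start the shared length was 1159 bp with osimertinib and 1151 bp with vehicle, and at ZSCAN22 it was 1015 bp with osimertinib and 1006 bp with vehicle. ZSCAN22 and the stronger ZNF584 site thus have a shift of like size and direction. There the H3K9me3 centre lay downstream, in the direction of the gene, of the H3K4me3 centre with osimertinib, by 985 bp at ZSCAN22 and 841 bp at ZNF584. At the first ZNF584 start it lay 123 bp downstream. At ZNF497, where the overlap with osimertinib was 1352 bp, it lay on the other side, at -648 bp, and the nearest H3K4me3 region with vehicle, assigned to RNA5SP473, was 697 bp away.

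At TRIM28 the gap between H3K9me3 and the H3K4me3 region inside the gene was 3190 bp with osimertinib and 2901 bp with vehicle. The CHMP2A region was 1416 bp from that same H3K4me3 region with osimertinib and 1705 bp with vehicle. H3K4me3 of TRIM28 therefore lies between 2 H3K9me3 regions with osimertinib, 1 on the start of TRIM28 and 1 in CHMP2A, which runs toward TRIM28 on the other strand with 850 bp between the ends of the genes. H3K4me1 with vehicle shared 1162 bp with the H3K9me3 region at TRIM28 and 1560 bp with the one at the first ZNF584 start.

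The same overlap was counted over wider groups of H3K9me3 regions with osimertinib. In the interval from 50 kb before to 50 kb after the regions of the 5 genes (chr19:58275179-58603822), 15 of the 17 regions assigned to other genes overlap H3K4me3 with osimertinib (88.2%, exact interval 63.6 to 98.5). On the rest of chromosome 19 it was 211 of 875 (24.1%, 21.3 to 27.1), and on other chromosomes 71 of 1175 (6.04%, 4.75 to 7.56). These intervals do not meet, but 13 of the 17 were among ranks 1 to 100, so place and strength go together here. Strength moved with the overlap too. Among ranks 1 to 100 the share was 73.0% (63.2 to 81.4), and above rank 100 it was 11.6% (10.2 to 13.0). For ranks 1 to 100 outside the interval it was 58 of 81 (71.6%, 60.5 to 81.1), a range that overlaps that of the 17. The 6 regions of the 5 genes, at 66.7% (22.3 to 95.7), all have ranks under 100 and cannot be told apart from other strong regions on this measure. Against H3K4me3 with vehicle the shares were 76.5% for the other genes of the interval, 16.9% for the rest of chromosome 19, 2.04% for other chromosomes, 91% for ranks 1 to 100 and 4.92% above rank 100. For ranks 1 to 100 outside the interval the share with vehicle was 95.1%, above that of the other genes in it.

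**Figure D3:**
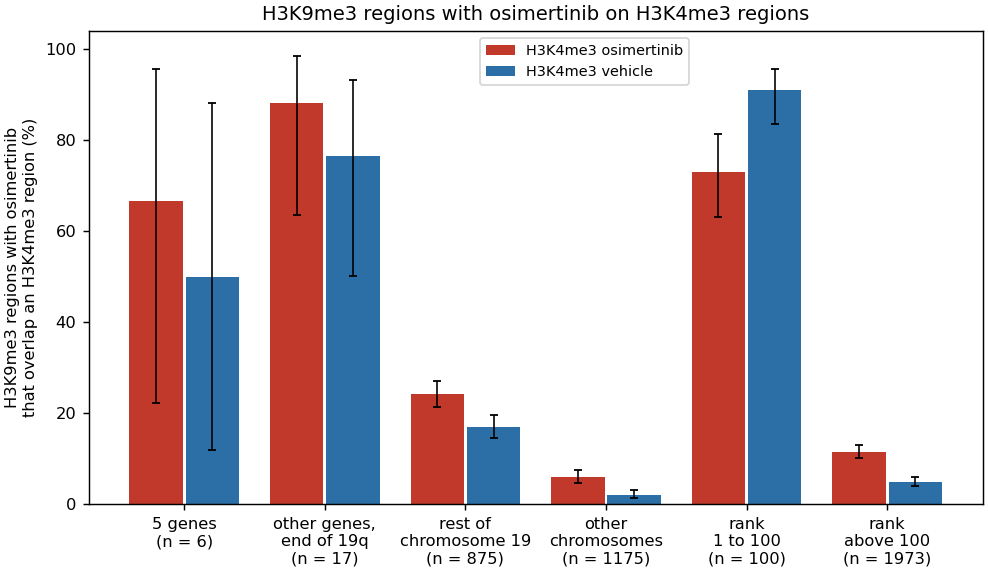
Share of H3K9me3 regions with osimertinib that overlap an H3K4me3 region with osimertinib (red) or with vehicle (blue) by at least 1 bp (vertical axis, percent), for regions of the 5 genes, of other genes in the interval, on the rest of chromosome 19, on other chromosomes, and by rank. Bars are shares, lines are exact 95% binomial intervals that cover counting error only, and the share at ranks 1 to 100 is 73.0% for H3K4me3 with osimertinib and 91% for that with vehicle, against 11.6% with osimertinib and 4.92% with vehicle above rank 100.

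The interval around the 5 genes was then mapped as a whole. It held 23 H3K9me3 regions with osimertinib and 8 with vehicle. Without the 6 regions that the genes were chosen on, 17 remain with osimertinib, 1.91% (1.11 to 3.03) of the other regions of the list on chromosome 19, against 0.859% (0.372 to 1.69) for the 8 with vehicle. These intervals overlap. The 17 had a median rank of 46, with 13 among the first 100, and the 8 with vehicle had a median rank of 649, with 0 among the first 100. The interval was itself placed around the 5 genes, so these counts are a description. With a margin of 250 kb in place of 50 kb the counts were 55 with osimertinib and 45 with vehicle.

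H3K4me3 was dense along the interval in both lists, with 62 regions with osimertinib (3.48% of the list's regions on the chromosome) and 47 with vehicle (3.16%). H3K4me1 had 1 region with osimertinib and 4 with vehicle. KDM1A had 0 with osimertinib and 1 with vehicle, at ERVK3-1.

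Of 26 other genes assigned a region there, 10 had H3K9me3 with osimertinib and 4 with vehicle. Next to TRIM28, ZBTB45, a BTB zinc finger gene, had 3 H3K9me3 regions with osimertinib and 0 with vehicle. Their signals were 16.1 (rank 23), 15.4 (rank 27) and 6.01 (rank 87), the first of them centred at -5.39 kb from the TRIM28 start. ZNF324B had 1 with osimertinib (13.0, rank 34), in its 3′ UTR, and 0 with vehicle. Toward the centromere the mark was in both lists. AC020915.1 had 4 regions with osimertinib and 2 with vehicle, and ERVK3-1, named for an endogenous retrovirus K element, had 3 with each treatment. The strongest of these were 26.0 (rank 8) at AC020915.1 and 17.1 (rank 18) at ERVK3-1 with osimertinib, against 3.49 (rank 671) at AC020915.1 and 4.67 (rank 362) at ERVK3-1 with vehicle.

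H3K4me3 was also listed without H3K9me3 in the interval. There were 19 other genes with H3K4me3 in both lists, and 11 of these were assigned no H3K9me3 region in either. Among them were SLC27A5, which codes for a bile acid CoA ligase, RNF225 and the zinc finger genes ZNF132, ZNF324, ZNF446 and ZNF837. The count goes by assigned gene and not by position. An H3K9me3 region with osimertinib assigned to AC012313.9 (chr19:58499536-58501535, rank 46) lies between H3K4me3 regions assigned to SLC27A5. By assignment, H3K9me3 with osimertinib was thus at some genes of the interval and not at others with H3K4me3.

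**Figure D4:**
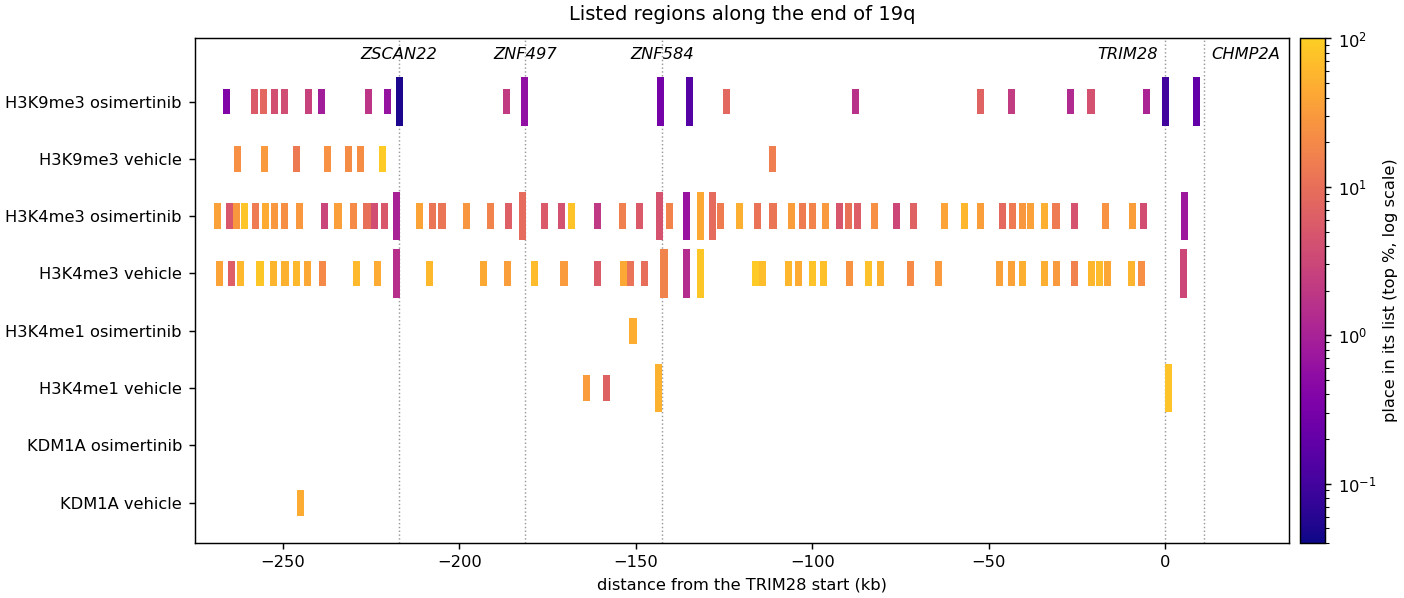
Regions of each list (rows) along the interval, by distance from the TRIM28 start (horizontal axis, kb), coloured by place in the list (top percent, log scale, dark is strongest). Tall boxes are the 20 regions assigned to the 5 genes, short boxes are regions of other genes, and dotted lines are RefSeq starts. The H3K9me3 row with osimertinib holds 23 regions against 8 with vehicle, and the vehicle row has 1 region between the start of ZSCAN22 and the end of the interval.

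TRIM28 works with a set of factors, and their promoters were counted in the same lists. Of 32 genes for writers, readers, erasers and partners of H3K9me3, 25 had H3K4me3 at a promoter in at least 1 list: 4 with osimertinib only, 4 with vehicle only and 17 in both. Of the 9772 genes with an H3K4me3 promoter region in either list, 17.3% had it with osimertinib only, 27.5% with vehicle only and 55.2% in both. The like base among the pathway genes is the 25, not the 32. Those with osimertinib only were CBX1 (HP1 beta), the H3K9 methyltransferase gene EHMT2, and FAM208A (TASOR) and MORC2, which code for a subunit and a partner of the HUSH silencing complex. With vehicle only they were the deacetylase gene HDAC1, the H3K9 demethylase genes KDM4A and KDM4B, and MPHOSPH8, another HUSH subunit.

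H3K9me3 itself was listed at the promoters of 3 of the 32, all zinc finger genes on chromosome 19: 1 with osimertinib only and 2 in both lists, against 39.3% and 30.5% of all 738 genes with such a region in either list. ZNF274, which binds zinc finger gene clusters and recruits TRIM28 there, had it in both lists. Its strongest promoter region was chr19:58184076-58186075 with osimertinib (9.10, rank 49) and another site, chr19:58207754-58209753, with vehicle (9.07, rank 92). A region with vehicle at rank 221 overlaps the first of these sites. ZNF91, which recognises SVA retroelements, also had it in both lists, again strongest at different sites. These were chr19:23396534-23398533 with osimertinib (rank 719) and chr19:23307499-23309498 with vehicle (rank 481). A region with osimertinib at rank 1230 overlaps the vehicle site. ZNF93, which recognises L1 elements, had a weak promoter region with osimertinib only, at rank 1535. All 3 ranked below the 6 regions of the 5 genes with osimertinib, but the 5 genes were chosen on those places, so nothing is read from this. For H3K4me1, CHD3, which codes for a subunit of the NuRD remodelling complex, had a promoter region with vehicle only. For KDM1A, a promoter region was listed at TRIM33 with osimertinib and at ATRX with vehicle, each in that list alone. Of the 1761 genes with such a region in either list, the share with osimertinib only was 59.1%, and with vehicle only 33.9%. Nothing is read from 1 gene of each kind. Away from promoters, TRIM33 also carried KDM1A with vehicle. The strongest such region, at rank 136 of 4731, overlaps a TRIM33 region with osimertinib at rank 679 of 8882.

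Genes most like TRIM28 were sought by whether a promoter region was present or absent in each of the 8 lists and then by the mean difference in signal percentile, a description over 8 libraries and 13022 genes. Only 3 genes matched TRIM28 in all 8 lists, and 812 matched in 7. The 3 were ZNF584, AC005324.3 and SUMF2, with mean differences of 3.36, 4.87 and 7.15 percentile points. The next were ZSCAN22 and ZNF460, which matched in 7 with differences of 2.80 and 4.20 points and lacked H3K4me1 with vehicle. ZNF497 matched in 6 lists and CHMP2A in 5. ZNF584 and ZSCAN22 were chosen on H3K9me3 regions that enter this measure, so their likeness to TRIM28 is partly fixed by that choice.

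SUMF2, a sulfatase-modifying factor gene on chromosome 7, had the H3K9me3 pattern far from 19q. Its region with osimertinib (chr7:56063323-56065322) had 23.9 at rank 10, no H3K9me3 region with vehicle lay within 78875 bp, and it shared 1934 bp with H3K4me3 of osimertinib and 1931 bp with that of vehicle. AC005324.3 on chromosome 17 had 6.71 at rank 76 with osimertinib, and ZNF460, a zinc finger gene on 19q, had 5.75 at rank 93.

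Among the 20 strongest H3K9me3 promoter regions with osimertinib, 18 are on chromosome 19 and 6 belong to the 5 genes. Of these 20, 17 overlap H3K4me3 with osimertinib, 15 overlap H3K4me3 with vehicle and 7 overlap H3K9me3 with vehicle. Genes of the first 10 outside the interval were PPP2R1A, ZNF552, ZNF766 and SUMF2. The PPP2R1A and ZNF552 regions share 690 bp and 1517 bp with an H3K9me3 region of vehicle, at ranks 742 and 699 of 2749. None of the 6 regions at the 5 genes overlap one, and neither do those of ZNF766 and SUMF2, which lie 125 bp and 78875 bp from the nearest. The 20 strongest H3K9me3 regions with vehicle were all in distal intergenic sequence, 0 of them on chromosome 19, and 9 of the 20 overlap an H3K9me3 region with osimertinib.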

How the data were processed

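Annotated region tables of 8 binding libraries from PC9 cells were used. The authors deposited a signal per region, a coverage-like height that is never negative, with its scaling, peak caller, threshold and control not given in the sources used here. It served only to rank regions within a list. The other deposited columns used give the assigned transcript's start and distance in bp, the annotation class, and a width that is repeated, per the file headers. The build is GRCh38 (hg38) and the tools named are HISAT2, featureCounts and Bowtie2 2.3.4, with no roles stated, per the submitters' processing notes. Every region is 2 kb wide, and 0 columns belonged to other samples. Groups came from titles and treatments.

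Gene names turned into dates were restored from gene IDs. A promoter region lies within 3 kb of a start, by the authors' annotation. Overlap means at least 1 bp. Exact intervals are Clopper-Pearson 95% and cover counting error only. With 1 library per target and treatment no test was made. Overlap code was checked on simulated regions.

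The 5 genes, the list of 32 H3K9me3 pathway genes and the markers were chosen with earlier results of these data known. Named genes were the 5, any gene in the interval, pathway genes in 1 list only or with H3K9me3, the 5 genes most like TRIM28 and the 10 strongest H3K9me3 promoter regions with osimertinib. Some genes that this covers are not named.

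Alternatives were promoters within 1 kb, any assigned region, equal numbers of regions, the stronger part of each list by its median, an overlap of 1000 bp, regions within 1 kb as shared, and margins of 0 or 250 kb. Widening regions to 2 kb times their repeats was added after seeing the data. The work used scipy 1.17.1, pandas 2.3.3, numpy 2.4.6 and matplotlib 3.10.9 under Python 3.11.15.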

Additional observations from a re-analysis of the deposited data

How the results depend on the processing

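No paired analysis was possible because each target and treatment has 1 library and the labels give no replicate numbers. Of 49 alternative values for 14 results, 41 stayed within 1.5 times the value given. Counts of the 5 genes with an H3K9me3 promoter region with osimertinib only (5) and with an H3K4me3 region in both lists (3) were the same under every alternative run. The H3K9me3 count rests on the values the genes were chosen on, so its constancy is no check of it. The width of the interval moved its counts. With 250 kb on either side H3K9me3 had 55 regions with osimertinib and 45 with vehicle, and KDM1A had 4 with osimertinib and 3 with vehicle. With no margin H3K9me3 had 14 with osimertinib and 1 with vehicle, and KDM1A had 0 with vehicle. Those alternatives change how much sequence is counted. When regions were widened to 2 kb times their repeats, chosen after seeing the data, 5 of the 6 H3K9me3 regions of the 5 genes overlapped H3K4me3 with vehicle, in place of 3, and 5 overlapped it with osimertinib, in place of 4. A minimum overlap of 1000 bp gave 2 of 6 for H3K4me3 with vehicle, and counting regions within 1 kb gave 4. Read depth is unknown, so a region missing from a list may be a weaker one that was not detected.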
